A study of Rattus norvegicus with 6 samples.

Results

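Immunoglobulin and plasma cell genes were followed through 6 rat mammary tumors. The group held 10 genes picked by symbol from the read count table for their known roles in antibody production and transport, namely Ighm, Jchain, Pigr, Mzb1, Prdm1, Irf4, Tnfrsf17, Derl3, Pou2af1 and Cd79b. All 10 had a row among the 30562 rows of the table, and they were selected with their older against younger values in these same tumors already known. Their levels by age are therefore given below as a description, and nothing is supported by them or by the test values printed with them.

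The tumors arose in F344 rats, an inbred strain, and each tumor gave 1 library for bulk RNA-seq. The younger rats were virgin animals from a commercial breeder and the older rats came from the colonies of the National Institute on Aging, so age and supplier cannot be told apart. Every rat carried a pellet of 50 mg medroxyprogesterone acetate (MPA), a progestin released over 90 days, and received the carcinogen DMBA (7,12-dimethylbenz(a)anthracene) at 65 mg per kg of body weight, so both groups shared both agents. Younger rats were 4 months old at DMBA treatment and gave tumors 157, 158 and 167, and older rats were 21 to 23 months old and gave tumors 102, 107 and 116. The younger rats formed 3 tumors in all, and each of them was sequenced. The older rats formed more tumors, per the paper, and 3 of theirs that had adequate tissue were sequenced. The comparison addresses whether the tumor environment differed with the age of the host.

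Plasma cells are the end stage of the B lineage and secrete antibody. Their differentiation is driven by the transcription factors IRF4 and BLIMP1, the latter encoded by Prdm1, and their large secretory load is carried by the folding machinery of the endoplasmic reticulum. In the mammary gland, plasma cells that make IgA assemble it into dimers through the J chain, and the polymeric immunoglobulin receptor, encoded by Pigr, carries these across the epithelium into milk.

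The upstream sequences of Jchain and Pigr are shown because these genes, with Ighm, had the largest differences in level between the age groups among the tested members. Each run is the 250 bases before the annotated start of the gene in RefSeq on assembly GRCr8, a later assembly than the mRatBN7.2 used for the counts, at chr14:19822726-19822975 on the plus strand for Jchain and chr13:44850932-44851181 on the plus strand for Pigr. Capitals mark ATTTGCA, the first 7 bases of the octamer motif of B lineage genes, in Jchain, and the E box CACGTG in Pigr.
Jchain: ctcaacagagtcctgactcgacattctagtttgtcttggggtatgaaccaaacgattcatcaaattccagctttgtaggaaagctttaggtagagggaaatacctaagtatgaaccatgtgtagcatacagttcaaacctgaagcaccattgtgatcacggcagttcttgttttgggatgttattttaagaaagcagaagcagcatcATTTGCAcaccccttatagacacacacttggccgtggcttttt
Pigr: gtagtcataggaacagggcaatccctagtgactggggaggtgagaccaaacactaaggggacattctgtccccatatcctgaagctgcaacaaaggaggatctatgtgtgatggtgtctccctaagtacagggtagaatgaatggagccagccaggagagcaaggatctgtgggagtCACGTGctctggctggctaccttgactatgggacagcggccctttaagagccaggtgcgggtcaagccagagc

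Promoter windows of 300 bases, from 250 before to 50 after the start, were given for 6 members, Jchain, Pigr, Prdm1, Derl3, Irf4 and Tnfrsf17, and not for Ighm, Mzb1, Pou2af1 and Cd79b. The full octamer ATTTGCAT, found on either strand in 1.78% of 33469 windows, was in 0 of the 6. Likewise, 0 of 6 held GTGAAAGT, a core shared by interferon response and BLIMP1 sites and present in 0.786% of windows, or TGACGTGG, a core of unfolded protein response sites present in 0.595%. The shorter ATTTGCA, searched after the values were seen and contained in every octamer match, was in 4.05% of windows and in those of Jchain and Prdm1. CACGTG, also searched later and identical on both strands, was in 6.42% of windows and in those of Pigr and Derl3. TATAAA, searched later as well, was in 14.2% and in those of Tnfrsf17 and Irf4. A match describes letters in the window and does not show binding.

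The libraries held between 3508571 and 6525830 counts, so that 3 counts corresponded to between 0.460 and 0.855 CPM, the depth-scaled count unit. Levels are given as CPM scaled by the trimmed mean of M-values (TMM), and they are compared between tumors for 1 gene at a time. Of the rows, 14060 passed the filter on low counts, and the edgeR quasi-likelihood test, adjusted by Benjamini-Hochberg at a threshold of 0.05, called 0 of them between the age groups, which is 0%. The smallest adjusted p was 0.0934, and 1202 genes had an unadjusted p under 0.05. Among the tested genes, 743 (5.28%) were higher in older tumors at an unadjusted p under 0.05, 925 (6.58%) were higher in every older tumor than in every younger tumor, and 784 (5.58%) were lower in every older tumor. DESeq2's Wald test, tried as an alternative, called 346 genes, of which 232 (1.65% of 14022 with an adjusted p) were higher in older tumors.

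Counts at most members were low, while Pigr had 404 to 1602 counts in older and 7 to 262 in younger tumors. The tested members were 5 of 10, Ighm, Jchain, Pigr, Prdm1 and Derl3. The other 5 had too few counts for the filter, and 1 of these, Cd79b, had no count in any tumor. The filter asked for about 2.14 CPM in at least 3 tumors, which Derl3 alone reached in all 3 tumors of each group. Ighm, Pigr and Prdm1 reached it in 3 older and 2 younger tumors and Jchain in 3 older tumors and 1 younger tumor, so that the entry of these 4 genes depended on the older group. Members with a higher level in every older tumor than in every younger tumor were 4 of 10, Ighm, Jchain, Pigr and Irf4, of which 3 were among the 5 tested. Pou2af1 alone was lower in every older tumor. At an unadjusted p under 0.05, 4 of the 5 tested members were higher in older tumors, edgeR called 0 after adjustment, and DESeq2 called 3, Ighm, Jchain and Pigr. These shares stand beside backgrounds of 6.58%, 5.28%, 0% and 1.65%, and since the same contrast was used in choosing the members, nothing is read from them.

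**Figure D1:**
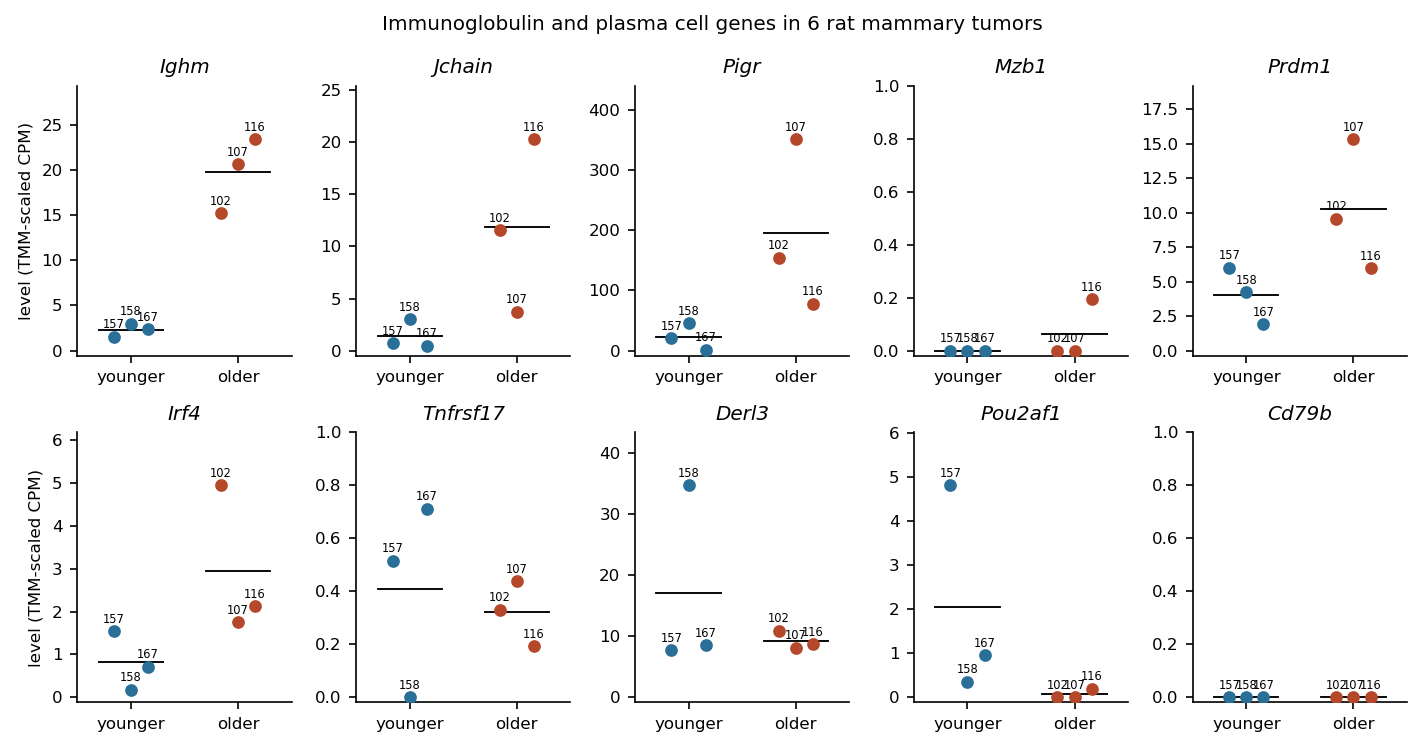
Level of each of the 10 members in TMM-scaled CPM (vertical axes, different in each panel and starting at 0) in the younger (blue) and older (red) tumors, with 1 labelled point per tumor and a line at the group mean. Ighm, Jchain, Pigr and Irf4 had every older point above every younger point, whereas single tumors set the younger mean of Derl3 (158) and Pou2af1 (157).

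Ighm encodes the constant region of the heavy chain of IgM, the first antibody class a B cell makes. It stood at 15.2, 20.6 and 23.4 CPM in older tumors 102, 107 and 116, and at 1.55, 2.99 and 2.37 CPM in younger tumors 157, 158 and 167. The groups were far apart, with the lowest older tumor above the highest younger tumor and little spread within either group. The means were 19.7 ± 4.19 CPM in older and 2.30 ± 0.724 CPM in younger tumors (SD, n = 3 each), a log2 fold change of 3.09 (SE 0.41). In counts the difference was 261 in the older tumors together against 36 in the younger. Among the tested members this was the value least dependent on single tumors, since it ranged only from 2.86 to 3.34 when each tumor was left out in turn. In bulk RNA, fewer cells of a type and less RNA per cell cannot be told apart.

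The table had 7 rows with symbols of immunoglobulin chains, of which 3 held any count. Ighg1, the constant region of a class-switched IgG heavy chain, had 6, 1 and 11 counts in tumors 102, 107 and 116 and 0 in each younger tumor. The summed older level was 7.28-fold a floor of 3 counts over the younger group, and 4.41-fold that floor without tumor 116. These ratios allow for no counting error in the few older counts. They rest on tumors 102 and 116, since the 1 count of tumor 107 is itself under 3 counts. Igkvl-ps6, named as a kappa variable pseudogene, had 3 counts, all in tumor 116. The lambda constant row Iglc1, the row Igh-6-ps1 and the variable pseudogene rows Igkvl-ps2 and Igkvl-ps19 were at 0 in all 6 tumors. Of 501 immunoglobulin and T cell receptor segments named in RefSeq, 3 had a symbol in the table and 0 of these had a count, so light chains and IgA heavy chains were not analysed here. Near-identical copies can share reads, and single rows are therefore uncertain.

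Summed over the named immunoglobulin rows, the level was 17.2, 20.8 and 26.1 CPM in older tumors 102, 107 and 116. In younger tumors 157, 158 and 167 it was 1.55, 2.99 and 2.37 CPM. Ighm gave 46 of 52, 94 of 95 and 121 of 135 summed counts in the older tumors, and all of them in the younger. The lack of overlap in these sums therefore repeats that of Ighm and is not a second result. These sums were small shares of the libraries, from 0.00148% to 0.00294% of all counts in older tumors and from 0.000170% to 0.000265% in younger tumors.

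Jchain encodes the joining chain, which links IgA into dimers and IgM into pentamers. Its level was 11.5, 3.73 and 20.3 CPM in older tumors 102, 107 and 116, and 0.688, 2.99 and 0.475 CPM in younger tumors 157, 158 and 167. Tumors 102 and 116 stood far above the rest, while older tumor 107 was only slightly above younger tumor 158, with 17 counts in each. The means were 11.9 ± 8.30 and 1.38 ± 1.39 CPM (SD, n = 3 each), and the log2 fold change was 3.05 (SE 0.86). Without older tumor 116 it was 2.39, and without younger tumor 158 it was 4.28.

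The balance of Jchain and Ighm varied between tumors of the same age group. Jchain took 43.2% (95% exact binomial interval 32.2 to 54.7%) of the counts of both genes in tumor 102, 15.3% (9.18 to 23.4%) in tumor 107 and 46.5% (39.8 to 53.2%) in tumor 116. The interval of tumor 107 lay below those of the other two older tumors, and these intervals cover counting error only. Younger tumors had 30.8% (9.09 to 61.4%) in tumor 157, 50.0% (32.4 to 67.6%) in tumor 158 and 16.7% (2.09 to 48.4%) in tumor 167, which rest on few counts. Their intervals overlap each other and those of the older tumors, except that tumor 158 lies above tumor 107. Ighg1 counts followed the same order as Jchain in older tumors, with 11 in tumor 116, 6 in tumor 102 and 1 in tumor 107, while Ighm was higher in tumor 107 than in tumor 102. The age groups overlapped in this share.

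**Figure D2:**
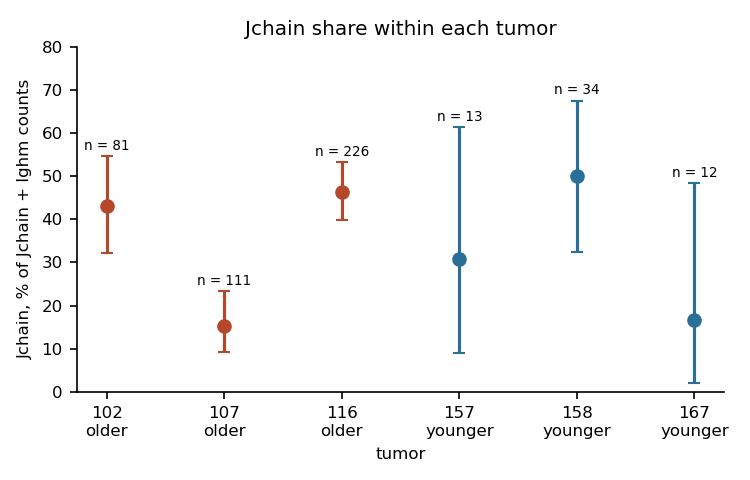
Share of Jchain in the summed counts of Jchain and Ighm (vertical axis, percent, not corrected for gene length) for each tumor, with 95% exact binomial intervals and the number of counts (n). Older tumor 107 lies at 15.3%, below the 43.2% and 46.5% of older tumors 102 and 116, and the younger tumors have wide intervals.

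Pigr, the receptor that transports dimeric IgA and pentameric IgM through epithelial cells, is made by the epithelium and not by plasma cells. It stood at 154, 352 and 78.2 CPM in older tumors 102, 107 and 116, and at 20.5, 46.1 and 1.66 CPM in younger tumors 157, 158 and 167. Every older tumor was above every younger tumor, yet the spread within each group was wide. The means were 195 ± 141 and 22.7 ± 22.3 CPM (SD, n = 3 each), a log2 fold change of 3.09 (SE 0.997). Without older tumor 107 the log2 fold change was 2.33, and without younger tumor 158 it was 4.11. The order of the older tumors for Pigr, with 107 highest and 116 lowest, was not that for Jchain, with 116 highest and 107 lowest. In the younger tumors both genes were highest in tumor 158 and lowest in tumor 167.

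Of 7 luminal epithelial markers tested, 6 had a negative log2 fold change, with a median of -0.31, and 2, Epcam and Krt8, were lower in every older tumor (5.58% of all tested genes). The summed level of the list overlapped between the age groups, at 1430 to 1792 CPM in older and 1675 to 2016 CPM in younger tumors. Epcam, an adhesion molecule of epithelial cells, was 297, 290 and 339 CPM in older tumors 102, 107 and 116 and 387, 459 and 480 CPM in younger tumors 157, 158 and 167, with a log2 fold change of -0.52 (SE 0.24). Krt8, a cytokeratin, was 96.8 to 263 CPM in older and 275 to 324 CPM in younger tumors. Summed milk protein genes ranged from 38278 to 151819 CPM in older and from 5445 to 170157 CPM in younger tumors, and the groups overlapped. Like Pigr, they were highest in tumor 158 and lowest in tumor 167 of the younger group, but of the older tumors they were highest in tumor 102 and Pigr was highest in tumor 107. The part of milk protein expression in the Pigr level was not tested.

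Among the transcription factors, Prdm1, which encodes BLIMP1 and is also active in other lymphocytes, myeloid cells and epithelia, was 9.57, 15.4 and 6.00 CPM in older tumors 102, 107 and 116 and 6.02, 4.22 and 1.90 CPM in younger tumors 157, 158 and 167. The groups met at tumors 116 and 157. The means were 10.3 ± 4.72 and 4.05 ± 2.06 CPM (SD, n = 3 each), a log2 fold change of 1.33 (SE 0.56). Over the older tumors its order was that of Pigr.

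Irf4, which acts at several steps of B and T cell activation and is required for plasma cells, was not tested. Its counts were 15, 8 and 11 in older tumors 102, 107 and 116 and 9, 1 and 3 in younger tumors 157, 158 and 167. Scaled by TMM, these were 4.95, 1.76 and 2.13 CPM against 1.55, 0.176 and 0.712 CPM, so the groups did not overlap but nearly touched at tumors 107 and 157. Scaled by library totals alone, the groups overlapped. The ratio of summed counts per library total, older over younger, was 3.17 (95% exact interval 1.63 to 6.55, counting error only), and it was 2.44 without tumor 102.

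Pou2af1, a coactivator that works with octamer-binding factors in B cells, had the opposite direction. Its counts were 0, 0 and 1 in older tumors 102, 107 and 116 and 28, 2 and 4 in younger tumors 157, 158 and 167. Tumor 157 alone gave 28 of the 34 younger counts. The ratio of summed counts per library total, younger over older, was 28.0 (95% exact interval 4.70 to 1139, counting error only). Without tumor 157 it was 7.49, with an interval of 0.908 to 344 that includes equal levels.

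Of the secretory machinery, Derl3 was tested and Mzb1 had too few counts to compare. Derl3, which helps to remove misfolded proteins from the endoplasmic reticulum, was 10.9, 8.12 and 8.71 CPM in older tumors 102, 107 and 116 and 7.74, 34.7 and 8.55 CPM in younger tumors 157, 158 and 167. A single high value, in younger tumor 158, set it apart, and the other 5 tumors lay between 7.74 and 10.9 CPM. The means were 9.24 ± 1.46 and 17.0 ± 15.3 CPM (SD, n = 3 each), and the log2 fold change of -0.88 (SE 0.61) turned to 0.18 without tumor 158. Mzb1, an endoplasmic reticulum chaperone of marginal zone B cells and plasma cells, had 1 count in tumor 116 and 0 in the other 5 tumors.

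The receptors were scarcely measured. Tnfrsf17, which encodes BCMA, the receptor of the survival factors APRIL and BAFF on plasma cells, had 1, 2 and 1 counts in older tumors 102, 107 and 116 and 3, 0 and 3 in younger tumors 157, 158 and 167, or 4 against 6 in all. Cd79b, a signalling chain of the B cell receptor that B cells carry and plasma cells largely lose, had 0 counts in all 6 tumors. This allows a level of up to 0.234 CPM over the older and 0.193 CPM over the younger libraries.

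**Figure D3:**
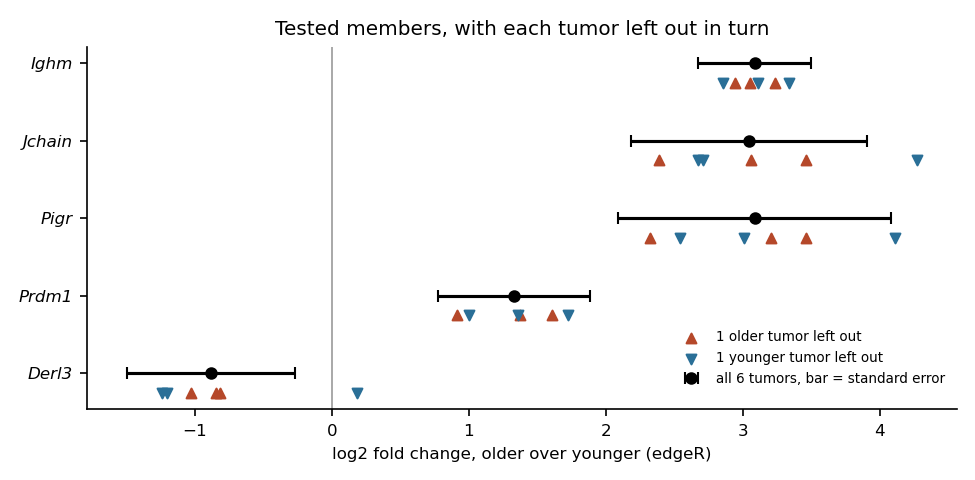
Log2 fold change of the 5 tested members from edgeR, older over younger (horizontal axis), with all 6 tumors (black, bar for the standard error) and with 1 older (red) or 1 younger (blue) tumor left out. Ighm keeps to 2.86 to 3.34, Jchain and Pigr reach 4.28 and 4.11 without tumor 158, and Derl3 lies on the positive side only without tumor 158.

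Since most members were so sparse, other genes of plasma cells were described from a list of 12, of which 8 were tested. Of these, 0 were called by edgeR and 6 had a positive log2 fold change (49.6% of all tested genes). Higher in every older tumor were 3 (6.58%), and the median was 1.01 beside -0.0031 over all tested genes. Xbp1, which drives the secretory program of plasma cells and also of mammary epithelium, was 1309, 686 and 591 CPM in older tumors 102, 107 and 116 and 302, 502 and 459 CPM in younger tumors 157, 158 and 167. Its log2 fold change was 1.03 (SE 0.39), and 0.59 without tumor 102. Cd38, an ectoenzyme of activated lymphocytes and plasma cells, had a log2 fold change of 1.86 (SE 0.50).

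Sdc1, the syndecan known as CD138 that marks plasma cells and is abundant on epithelial cells, went the other way. It was 62.7, 102 and 105 CPM in older tumors 102, 107 and 116 and 264, 167 and 190 CPM in younger tumors 157, 158 and 167, without overlap. The log2 fold change was -1.20 (SE 0.30, edgeR adjusted p = 0.316). DESeq2 called it and Cd38, with adjusted p = 0.0281 and 0.0329, beside 346 calls over all genes. Slamf7, a surface receptor of plasma cells and cytotoxic lymphocytes, was 29.6 CPM in tumor 107 and 1.58 to 3.96 CPM in the other tumors, and its log2 fold change of 2.15 (SE 0.92) was 0.31 without tumor 107.

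Antibody folding and secretion genes were listed as 16, of which 15 were tested and 0 called. A positive log2 fold change was seen in 8 and a negative in 7, and the median was 0.033. Higher in every older tumor were 3, Fkbp11, Edem1 and Herpud1 (6.58% of all tested genes), and 0 were lower in every older tumor (5.58%). The summed level of the list was 1368 to 2059 CPM in older and 1507 to 2633 CPM in younger tumors. It was highest in tumor 158, where Derl3 was also highest. Fkbp11, a prolyl isomerase of the secretory pathway, was 20.8 to 25.2 CPM against 8.94 to 15.1 CPM, with a log2 fold change of 1.05 (SE 0.32). Hspa5 and Hsp90b1, abundant chaperones of the endoplasmic reticulum, had log2 fold changes of -0.44 (SE 0.47) and -0.45 (SE 0.37).

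The signals that keep plasma cells alive and draw them to tissue were described from 17 listed genes. Of the 9 tested, 0 were called by edgeR and 1, Vcam1, by DESeq2, as higher (1.65% of genes with an adjusted p). Higher in every older tumor were 3 (6.58% of all tested genes), and the median log2 fold change was 0.49. Tnfsf13, which encodes APRIL, was 79.5, 115 and 77.6 CPM in older tumors 102, 107 and 116 and 39.7, 58.0 and 25.4 CPM in younger tumors 157, 158 and 167, with a log2 fold change of 1.14 (SE 0.35). Tnfsf13b, which encodes BAFF, had 8, 15 and 11 counts in the older and 4, 1 and 2 in the younger tumors. It passed the filter only through the older tumors, so nothing is read from its place among the 3. Vcam1, an adhesion molecule for lymphocytes, was 11.6 to 78.8 CPM in older and 1.19 to 4.99 CPM in younger tumors, with a log2 fold change of 3.60 (SE 0.80) that was 2.64 without tumor 102.

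The homing chemokine Cxcl12 overlapped between the groups, at 69.9 to 133 CPM against 72.5 to 140 CPM. Ccl25, a mucosal chemokine for cells that make IgA, had 0 counts in all tumors, and Il6 had 7 counts in the older and 6 in the younger tumors. Of 10 listed Fc receptor and antibody-binding genes, 9 were in the table and 7 were tested, with 0 called. Higher in every older tumor were 2 (6.58% of all tested genes), and the median log2 fold change was 1.30. Fcgr2b, the inhibitory IgG receptor, was 21.1, 5.49 and 2.52 CPM in older tumors 102, 107 and 116 and 1.06 to 2.41 CPM in the younger, with a log2 fold change of 2.52 (SE 0.84) that was 1.27 without tumor 102. Fcgrt, which protects IgG from breakdown, was 18.9 to 28.5 CPM against 17.2 to 37.5 CPM.

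Markers of B cells earlier in the lineage were described from 22 genes, of which 9 were tested. EdgeR called 0 and DESeq2 called 2, both higher in older tumors (1.65% of genes with an adjusted p). All 9 tested genes had a positive log2 fold change (49.6% of all tested genes). Of these, 2 were higher in every older tumor (6.58%), and the median was 1.22. The summed level of the list was 80.3 to 168 CPM in older and 31.5 to 58.6 CPM in younger tumors. Of its tested genes, Blnk, Ciita and Ebf1 had the highest mean levels. These were 37.0, 26.8 and 14.3 CPM in older and 9.94, 3.21 and 6.01 CPM in younger tumors. The defining genes of the list were nearly unmeasured, with 0 counts of Ms4a1 (CD20) and 25 of Cd79a over all 6 tumors. Cd79a, Pax5 and Pou2af1 had more counts in the younger tumors, with 18 against 7 for Cd79a and 24 against 9 for Pax5. Among untested genes of the list, Cd79a and Cxcr5 were lower in every older tumor, and Blk was higher in every older tumor. In older tumors 102, 107 and 116, Cxcr5 had 1, 4 and 3 counts and Blk 3, 16 and 2. In younger tumors 157, 158 and 167, these were 14, 5 and 7 for Cxcr5 and 0, 2 and 1 for Blk. Blnk, an adaptor of B cell receptor signalling, was 51.5, 25.5 and 34.1 CPM in older tumors 102, 107 and 116 and 11.7, 7.21 and 10.9 CPM in younger tumors 157, 158 and 167, with a log2 fold change of 1.89 (SE 0.37). Ciita, the regulator of class II antigen presentation that macrophages also use, had a log2 fold change of 3.05 (SE 0.80) and was highest in tumor 107, at 55.7 CPM, without which it was 1.94. Germinal centre and class switch genes were tested for 5 of 8, with 0 called, 0 higher in every older tumor, and a median of 0.24.

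**Figure D4:**
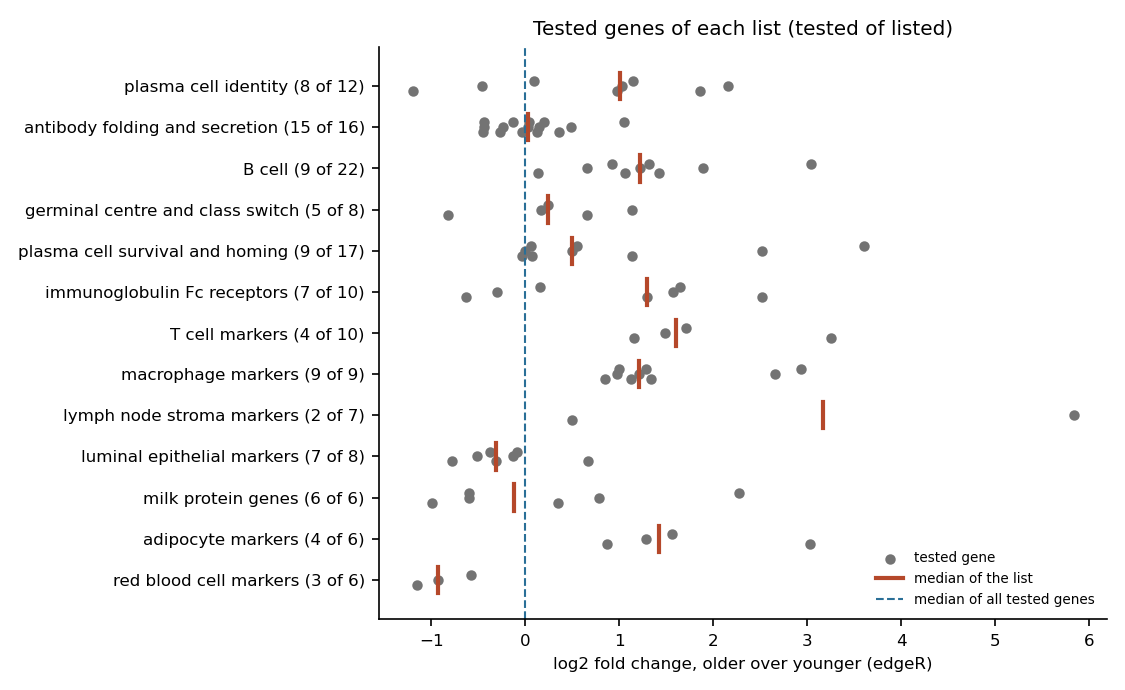
Log2 fold change, older over younger (horizontal axis), of each tested gene in the 13 lists beside the members (grey points), with the median of each list (red) and of all tested genes (dashed line). The B cell, T cell, macrophage, lymph node stroma and adipocyte lists have every tested gene on the positive side, whereas antibody folding and secretion genes lie on both sides of zero. Cd3e of the T cell list and Tnfsf13b of the survival and homing list passed the filter only through the older tumors.

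Markers of other leukocytes also differed in summed level between the age groups without overlap. All 9 macrophage markers were tested and had a positive log2 fold change (49.6% of all tested genes). Of these, 4 were higher in every older tumor (6.58%). The median was 1.21, and the summed level was 554 to 1215 CPM in older against 153 to 309 CPM in younger tumors. T cell markers were tested for 4 of 10, all 4 positive, with a summed level of 26.4 to 156 CPM against 13.7 to 21.7 CPM and a median of 1.60. Of these 4, Cd3e had 10, 19 and 26 counts in older tumors 102, 107 and 116 and 8, 8 and 7 in the younger. Cd3e passed the filter only through the older tumors, so nothing is read from its sign. EdgeR called 0 genes of either list and DESeq2 called 1 of each, both higher in older tumors (1.65% of genes with an adjusted p). Both sums were highest in tumor 107, as were Pigr and Prdm1, whereas Ighm and Jchain were highest in tumor 116, which had the lowest macrophage sum of the older tumors. The part of overall leukocyte content in the immunoglobulin levels was not tested.

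Tissue that a dissected tumor can carry along was described in the same way. Of 7 markers of lymph node stroma, 2 were tested, and the homing chemokine genes Ccl19 and Ccl21 and the follicular gene Cr2 had 3, 1 and 1 counts over all tumors. Glycam1, a ligand of lymph node vessels that is also a milk protein, was 3900, 1118 and 83.8 CPM in older tumors 102, 107 and 116 and 12.3 to 44.9 CPM in younger tumors, with a log2 fold change of 5.84 (SE 1.32) that was 4.32 without tumor 102. Its order in the older tumors was not that of Ighm or Jchain. Adipocyte markers, 4 tested of 6, had a median log2 fold change of 1.42, with a summed level of 181 CPM in tumor 102 and 10.2 to 40.6 CPM in the other tumors. Red blood cell markers, 3 tested of 6, were negative in all 3, with a median of -0.93. Their part in the member levels was not tested.

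The genes most like Jchain over the 6 tumors, by Pearson's correlation of log2 CPM with a prior count of 2, were Hivep1 (0.992), Snupn (0.981), Nfxl1 (0.977), Rasal1 (0.973) and Tmem120b (0.973). Those most like Pigr were Hk3 (0.983), a hexokinase of myeloid cells, Tnfsf13 (0.982), Wdr91 (0.981), RT1-M2 (0.976) and Slc26a10 (0.976). These are the highest of all tested named genes over only 6 tumors that fall in 2 age groups, and the points share the difference between the groups. Among the members, Jchain was nearest to Ighm (0.862) and farthest from Derl3 (0.064), and Pigr was nearest to Prdm1 (0.938).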

How the data were processed

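Bulk RNA-seq of 6 tumors, 3 older and 3 younger, was grouped by tumor ID. The authors checked reads with FastQC, trimmed them with Trimmomatic, used STAR for alignment and Picard to mark duplicates. They deposited raw, unnormalized read counts per gene from HTSeq 0.13.5 on mRatBN7.2, per the submitters' processing notes. The annotation and strand setting are not given in the sources used here, so a gene and its antisense partner cannot be told apart. Of library preparation, the labels name both polyA RNA with a read length of 100 bases and, in the protocol, depletion of ribosomal RNA with 150 bases.

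The analysis of these counts used edgeR 4.0.16 in R 4.3.3 (filterByExpr, TMM, quasi-likelihood test without covariates, Benjamini-Hochberg over 14060 genes, threshold 0.05), limma 3.58.1 and DESeq2 1.42.0. Of 30562 rows, 4367 had no name and 8251 no count. Standard errors were calculated back from the F statistic. Of the tests, only edgeR's was also run on simulated counts. Totals ran from 3508571 to 6525830 counts per tumor. The tumors are separate, but the labels do not tie each to its own rat, so p-values measure the spread between these tumors.

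The members and lists were chosen with earlier results of these data known. Named were all members, the immunoglobulin rows (6 by rule, but all 7 since 4 tied at 0), and from each other list the 3 tested genes highest in CPM and the 3 with the largest absolute log2 fold change, of which those with a bearing on the members are given. Single genes with few counts were named after their values were seen. Alternatives were other size factors, other filters, DESeq2, limma-voom, a prior count of 0.5, leaving out the 10 most abundant genes and leaving out each tumor. RefSeq promoter windows on GRCr8 matched 6 of 10 members. Some items of the lists are not reported here.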

Additional observations from a re-analysis of the deposited data

How the results depend on the processing

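The count of genes called over the whole table was 0 by edgeR, 346 by DESeq2 and 1 without the filter on low counts. Limma-voom called 0. Of the members, 0 passed by edgeR, 0 by limma-voom (adjusted p of 0.193 for Ighm, 0.557 for Jchain and 0.517 for Pigr) and 3 by DESeq2, with log2 fold changes of 3.10 for Ighm (adjusted p = 8.7e-08), 3.07 for Jchain (adjusted p = 0.0224) and 3.09 for Pigr (adjusted p = 0.0275). The cause of this gap between the tools was not tested. Since the same contrast was used in choosing the members, nothing is read from these p-values. The entry of Ighm, Jchain and Pigr into the tests also depended on the older group. Derl3 turned from -0.88 to 0.18 without younger replicate 158, and ranged from -1.24 to 0.18 as each tumor was left out. Ighm, Jchain, Pigr and Prdm1 kept a positive log2 fold change under all alternatives run, and leaving out each tumor gave 2.86 to 3.34, 2.39 to 4.28, 2.33 to 4.11 and 0.91 to 1.72. A filter of 10 counts in every tumor removed all 4 of these genes and gave no value. Members higher in every older tumor were 4 or 5 under the other scalings and filters and with each tumor left out (not counted for DESeq2's test, limma-voom or the prior count), with Prdm1 in place of Irf4 under library totals alone. The values of Pou2af1, Irf4, Ighg1 and genes outside the members without a single tumor were added after seeing the data. With 3 tumors in each group and few counts per gene, Mzb1, Tnfrsf17 and Cd79b could not be compared. No paired analysis was possible because no replicate number occurs in both age groups, whose rats also differ.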
